A study of Mus musculus with 8 samples.

Results

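The Hnf4 genes of the mouse, Hnf4a and Hnf4g, were described by the peaks of 3 chromatin factors in kidney cortex. These 2 genes were taken by name, out of 21627 protein-coding genes on chromosomes 1 to 19 and X, and every peak with its summit in the gene span or within 50 kb of it was counted. The peaks come from chromatin immunoprecipitation with sequencing, in which an antibody against a chromatin protein enriches the DNA bound to it, on kidney cortex of 2-month-old mice with the genotype Mta2flx/flx. That genotype means loxP-flanked Mta2 alleles, it is shared by all groups, and the labels name no Cre driver. The 4 groups are antibodies against Mta2, Mbd3 and Zbtb7a and the Input chromatin, with 2 biological replicates each, and the study's title concerns loss of Mta2 in nephron progenitor cells. One list of peaks per factor stands for both mice, so no value here has an SD or an n, no p-value could be computed, and a difference cannot be set against the spread between mice.

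HNF4 alpha and HNF4 gamma, the products of Hnf4a and Hnf4g, are nuclear receptors that bind DNA as dimers at paired hexamers. HNF4 alpha is known as a regulator of liver, intestine, pancreas and the proximal tubule of the kidney, where it is needed for the mature state of the tubule cell. HNF4 gamma has a closely related DNA-binding domain and is best known from the intestine. Mta2 and Mbd3 belong to the NuRD complex, which combines nucleosome remodelling with removal of acetyl groups from histones, and Zbtb7a is a zinc finger factor known to act as a repressor. Hnf4a has a pair of known promoters, of which the downstream one (P1) is the one known from adult liver and kidney and the upstream one (P2) from pancreas and stomach.

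The lists held 149855 peaks of Mta2, 134248 of Mbd3 and 124616 of Zbtb7a on autosomes and X. The median fold enrichment, the authors' ratio of signal over background at the summit of a peak, was 5.21 in the Mta2 list, 5.02 in that of Mbd3 and 5.00 in that of Zbtb7a. A fold is used here only to rank a peak within its own list, and a percentile is the percentage of peaks in that list with a lower fold. Of the marker genes of cells that cortex holds, all 4 of the proximal tubule, all 3 of podocytes and all 3 of endothelium had a summit of every factor within 1 kb of a gene end, and 1 of 3 immune genes did, where 62.5% of all protein-coding genes did. Absence of a peak means that signal did not reach the authors' threshold, not absence of the factor, and peaks in cortex tissue cannot be assigned to a cell type.

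Hnf4a lies on chromosome 2 from 163506811 to 163572907 (mm10), a span of 66097 bp. The RefSeq promoter table for GRCm38.p6 matched 1 of the 2 members and lists 2 transcription starts for Hnf4a, both on the plus strand, at 163506857 and, 40298 bp downstream, at 163547155. It also lists the start of Hnf4aos, a long non-coding RNA transcribed from the minus strand across the upstream part of Hnf4a, at 163541721, which is 5434 bp upstream of the second Hnf4a start. Hnf4g is not in that table. The 250 bases before each of these starts are shown because the first start had no peak near it, the second had a peak of each factor over it and the third lies inside one of the strongest sites of the locus. Each is written 5′ to 3′ in the direction of transcription, and capitals mark matches to the motifs named after the sequences.
Hnf4a, upstream start, plus strand, chr2:163506607-163506856: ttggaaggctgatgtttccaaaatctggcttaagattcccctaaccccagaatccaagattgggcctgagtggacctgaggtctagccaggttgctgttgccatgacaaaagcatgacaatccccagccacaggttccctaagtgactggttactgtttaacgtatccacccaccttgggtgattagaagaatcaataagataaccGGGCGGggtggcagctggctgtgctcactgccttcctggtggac
Hnf4a, downstream start, plus strand, chr2:163546905-163547154: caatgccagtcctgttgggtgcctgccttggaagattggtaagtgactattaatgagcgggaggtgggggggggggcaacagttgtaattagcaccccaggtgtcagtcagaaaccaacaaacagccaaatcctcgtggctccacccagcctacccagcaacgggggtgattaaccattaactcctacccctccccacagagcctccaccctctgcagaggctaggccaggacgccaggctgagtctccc
Hnf4aos start, minus strand, chr2:163541722-163541971: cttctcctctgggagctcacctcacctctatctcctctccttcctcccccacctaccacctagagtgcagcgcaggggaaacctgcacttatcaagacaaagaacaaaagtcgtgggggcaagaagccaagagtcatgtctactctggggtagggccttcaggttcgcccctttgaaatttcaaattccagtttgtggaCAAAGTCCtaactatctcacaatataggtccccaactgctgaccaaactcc
A set of 4 strings was searched on both strands, and none overlapped another in these windows. The string CAAAGTCC, the core of the motif by which HNF4 factors are known, was found in the Hnf4aos window, beginning 51 bases before the start, and in neither Hnf4a window. It is in 1.20% of the 32619 listed windows of this length. The GC box GGGCGG, the site of Sp1-like factors, was in the window of the upstream Hnf4a start, 44 bases before it, and is in 33.0% of all windows. The hexamer AGGTCA of many nuclear receptors (14.1% of windows) and GACCACC, a string bound by Zbtb7-type zinc fingers in vitro (2.36% of windows), were in none of the 3. The windows hold 3, 4 and 3 CpG dinucleotides in the order shown, where the median over all listed windows is 6. A match is a description of letters and not of a bound site.

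At the downstream Hnf4a start all 3 factors had a peak that covered the start, and at the upstream start none had a summit within 1 kb. The Mta2 peak at the downstream start (163546554 to 163547592) had a fold of 13.8 and a −log10 q of 136, at percentile 83.0 of its list, with its summit 103 bp upstream of the start. The Mbd3 peak (163546546 to 163547685) had a fold of 12.7 and a −log10 q of 119, at percentile 82.2, with its summit 121 bp upstream. The Zbtb7a peak (163546543 to 163547715) had a fold of 21.2 and a −log10 q of 213, at percentile 92.0, with its summit 44 bp upstream. The peaks over this start were thus well above the median of each list, and that of Zbtb7a stood highest in its own.

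The summits nearest to the upstream start all lay further upstream, towards the neighbouring gene R3hdml. They were 3638 bp away for Mta2 (fold 5.74), 3629 bp for Mbd3 (fold 3.32) and 4424 bp for Zbtb7a (fold 4.45). Over all 21044 listed starts of protein-coding genes, 66.9% had a Mta2 summit within 1 kb, 65.6% Mbd3 and 65.7% Zbtb7a, while 62.6% had all 3 and 30.5% had none. Among the 1032 protein-coding genes with listed starts at least 5 kb apart, 407 (39.4%) carried all 3 factors at a start and no factor at another, as Hnf4a did, so the pattern is a common one. Because the gene span begins at the upstream start, a window of 1 kb around the ends of Hnf4a misses the occupied start, and what it holds are weak peaks near the 3′ end. Within 1 kb of that end lay 1 Mta2 summit (fold 3.23), 1 Mbd3 summit (fold 2.42) and 4 Zbtb7a summits (folds 2.25 to 3.89).

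The 2 strongest peaks of each factor at Hnf4a lay inside the gene. The strongest site of all was 13304 bp downstream of the downstream start, where the Zbtb7a peak (163558379 to 163562614) had a fold of 86.6, rank 65 of 124616. This Zbtb7a peak was 4236 bp wide, where the median width in its list was 393 bp. At the same site the strongest Mta2 peak (163558244 to 163560983) had a fold of 40.5, rank 1108, and the strongest Mbd3 peak (163558469 to 163560940) a fold of 40.6, rank 926. The Mta2 and Zbtb7a summits fell on the same base, 163560459, and the Mbd3 summit 15 bp from it. A second Mta2 peak and a second Mbd3 peak, with folds of 5.82 and 6.27, lay under the upper part of the same wide Zbtb7a peak.

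Other strong sites inside the gene flank the downstream start, and they are given in the order of their Zbtb7a folds. For Mta2 and Mbd3 the third strongest peak lay outside the gene. At 2764 bp downstream of the downstream start, Zbtb7a had a fold of 53.3 (rank 574, 163548724 to 163550469), Mta2 25.5 and Mbd3 25.6. The 3 summits there fell within 2 bp. The site that covers the Hnf4aos start (163540275 to 163543102) had folds of 38.2 for Mta2, 33.3 for Mbd3 and 43.4 for Zbtb7a, at percentiles 99.0, 98.4 and 98.9. Its summits lay 715, 820 and 841 bp from the Hnf4aos start on the transcribed side, for Mta2, Mbd3 and Zbtb7a. Further upstream, 11915 bp from the downstream Hnf4a start, Zbtb7a had a fold of 37.5, Mbd3 25.8 and Mta2 21.7, with summits within 16 bp. Each of these sites outranked the downstream start itself in all 3 lists.

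**Figure D1:**
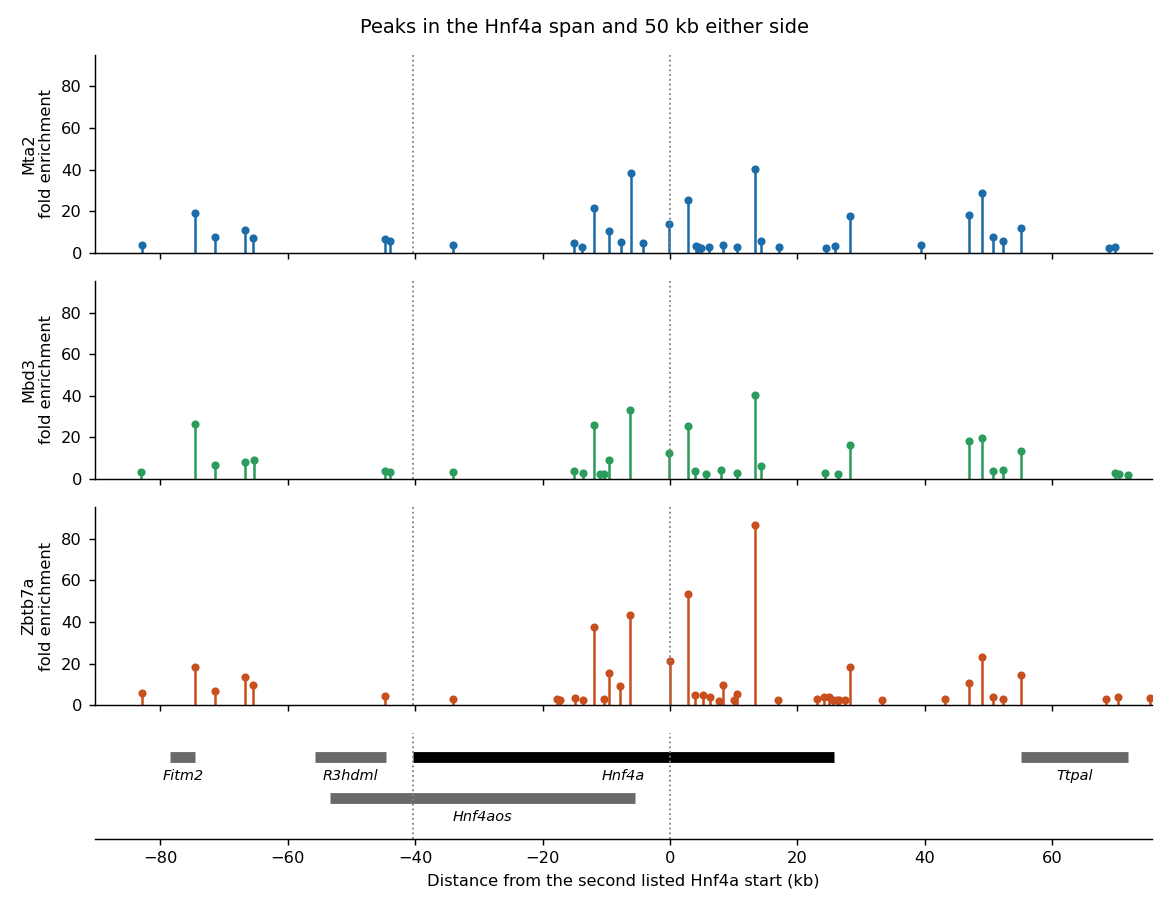
Fold enrichment of each peak (y axis) against the distance of its summit from the second listed Hnf4a start in kb (x axis), for Mta2, Mbd3 and Zbtb7a on a shared scale, with gene spans drawn to scale below. Dotted lines mark the 2 listed Hnf4a starts. The upstream line has no summit within 1 kb, and the highest stem in each panel is the site 13304 bp downstream of the second start, at folds of 40.5, 40.6 and 86.6.

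In all, the Hnf4a window of 166097 bp held 37 Mta2, 34 Mbd3 and 45 Zbtb7a summits. At least 1 summit in such a window is the rule over protein-coding genes, at 90.6% for Mta2, 90.1% for Mbd3 and 89.7% for Zbtb7a. The median gene had 12, 11 and 10 summits, and the counts at Hnf4a were at percentiles 96.2, 95.9 and 98.6 of genes. Inside the span lay 20 Mta2, 17 Mbd3 and 25 Zbtb7a summits. Between the upstream end and the downstream start (40345 bp) there were 9, 9 and 11, and between the downstream start and the 3′ end (25752 bp) 11, 8 and 14. Peaks in the top 1% of their list numbered 2 for Mta2, 1 for Mbd3 and 2 for Zbtb7a, and 12.3%, 10.9% and 12.2% of genes had at least 1 such peak in their window.

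Flanking peaks of Hnf4a stand near other genes, and they cannot be assigned to Hnf4a from position. The lower flank held 7 Mta2, 7 Mbd3 and 6 Zbtb7a summits. Its strongest site lay over the start of Fitm2, which encodes a protein of lipid droplet formation, and of the adjoining non-coding 2310001K24Rik, with folds of 19.3 for Mta2, 26.6 for Mbd3 and 18.5 for Zbtb7a. That Mbd3 peak was the third strongest of Mbd3 in the window. The upper flank held 10, 10 and 14 summits, and its strongest site lay between Hnf4a and Ttpal (163594925 to 163597053), with folds of 28.5, 19.9 and 23.3 for Mta2, Mbd3 and Zbtb7a. Over the lower end of Ttpal itself the folds were 12.0, 13.3 and 14.5. Summits for which Hnf4a was the nearest protein-coding gene numbered 23 for Mta2, 19 for Mbd3 and 30 for Zbtb7a.

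The peaks of the 3 factors around Hnf4a were merged into 44 sites wherever they shared at least 1 bp, and 28 of these (63.6%) held all 3 factors. Over all merged regions of the lists that share was 61.4%, so the sharing at Hnf4a was near the background. At the 28 sites the strongest summits of the 3 factors had a median spread of 43.5 bp, where the median over all such regions was 41 bp. Zbtb7a alone held 10 sites, 22.7% of the 44, where 4.37% of all merged regions held Zbtb7a alone. Those 10 Zbtb7a peaks were weak, with folds from 2.25 to 3.22 and none above percentile 21.9. Mta2 alone held 2 sites and Mbd3 alone 2, each 4.55% of the 44, where 14.1% of all merged regions held Mta2 alone and 4.18% Mbd3 alone. The stronger of the Mta2 sites had a fold of 3.55 (163586486 to 163586669), and the stronger of the Mbd3 sites 2.55 (163617679 to 163617843).

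Within the shared sites, the within-list percentile was compared between factors as a description, since the lists differ in antibody and length. Zbtb7a had the highest percentile of the 3 at 16 of the 28 Hnf4a sites, Mta2 at 9 and Mbd3 at 3. Over all regions with 3 factors Zbtb7a was highest at 25.7%, Mta2 at 47.9% and Mbd3 at 26.4%. Zbtb7a led at 10 of 14 shared sites in the gene span and at 6 of 14 in the flanks. Zbtb7a led at all 7 shared sites between the downstream start and the 3′ end. At those 5219 and 24983 bp downstream of that start, the compared summits spread over 836 and 714 bp, in that order. Elsewhere Zbtb7a led at 3 of 7 between the upstream end and the downstream start, at 3 of 6 below the gene and at 3 of 8 above it. The site over the downstream start, led by Zbtb7a, is among those 3 of 7, as its Zbtb7a summit lies 44 bp upstream. At the site over the Hnf4aos start, in the same stretch, Mta2 (99.03) and Zbtb7a (98.93) were nearly equal. Examples inside the gene are the site 8263 bp downstream of the downstream start, with Zbtb7a at percentile 74.0 (fold 9.47) and Mta2 at 32.9 (fold 3.85), and the site at 10486 bp, with Zbtb7a at 55.3 (fold 5.58) and Mta2 at 11.7 (fold 2.81). No value per mouse exists, so whether this order would hold in each mouse was not tested.

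**Figure D2:**
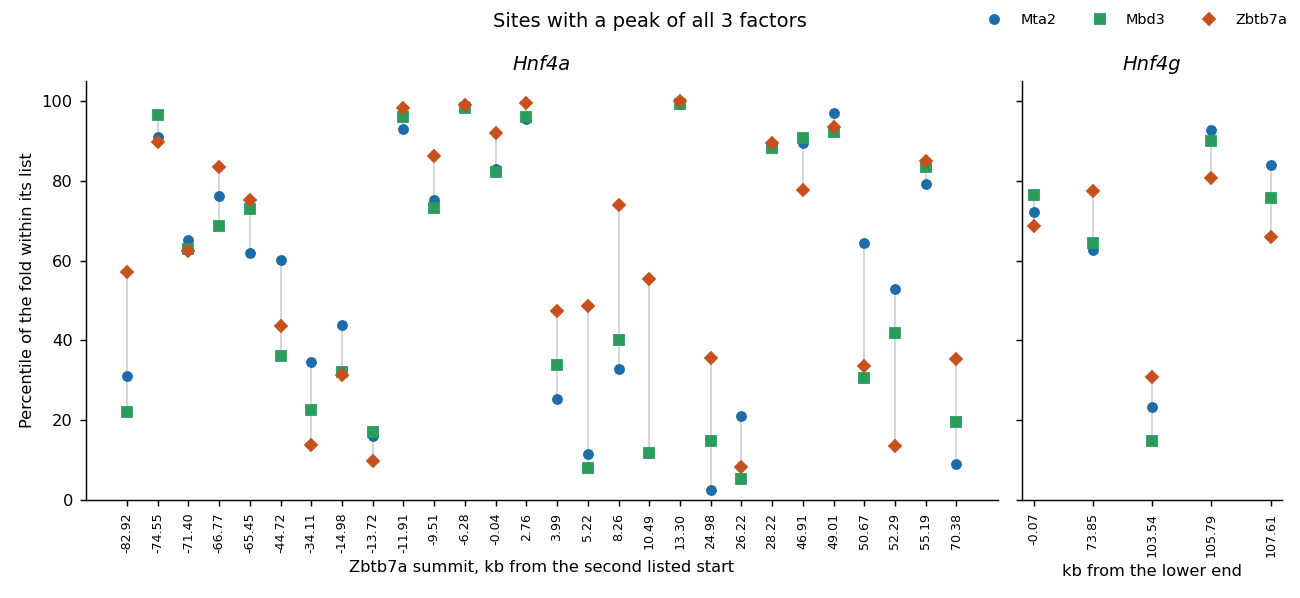
Within-list percentile of the fold (y axis) at each site that holds all 3 factors, in order along the chromosome and labelled on the x axis by the distance in kb of the Zbtb7a summit, for the 28 sites at Hnf4a and the 5 at Hnf4g. Points are the strongest peak of each factor, and grey lines join their range. At Hnf4a the orange Zbtb7a diamond is uppermost at all 7 sites between the second listed start and the 3′ end, and at Hnf4g at 2 of 5.

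Hnf4g lies on chromosome 3 from 3508030 to 3659800 (mm10), a span of 151771 bp, and carried few peaks. Its window of 251771 bp held 6 Mta2, 7 Mbd3 and 7 Zbtb7a summits, at percentiles 27.4, 34.1 and 36.2 of protein-coding genes. Per 100 kb of window that was 2.38, 2.78 and 2.78 summits, against 22.3, 20.5 and 27.1 at Hnf4a and medians over genes of 8.78, 7.85 and 7.35. No other gene of the RefSeq table lies in the window, and the nearest protein-coding gene, Zfhx4, is 1558418 bp away from the span. The summits next above the window were 611755 bp (Mta2), 611693 bp (Mbd3) and 611749 bp (Zbtb7a) beyond the upper end, and those next below it 76872, 83664 and 76532 bp from the lower end. At Hnf4a the nearest summit outside the window was Zbtb7a, 64867 bp above the upper end, and the outermost inside it was also Zbtb7a, 339 bp within the limit.

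All 3 factors had a peak over the lower end of Hnf4g, and the other summits lay between 73813 and 107608 bp from that end. The peaks over the lower end had folds of 9.40 for Mta2 (3507609 to 3508720), 10.3 for Mbd3 (3507597 to 3508692) and 7.95 for Zbtb7a (3507646 to 3508754), at percentiles 72.3, 76.5 and 68.6 of their lists. Their summits lay 74, 86 and 66 bp below the end. All 3 factors near a gene end was the case for 62.5% of protein-coding genes. The upper end had no summit of any factor within 1 kb, and the last 44162 bp of the span had none at all.

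The first 73879 bp after the lower-end summits were also without a summit. A site there followed at 73851 bp from the lower end, with folds of 10.8 for Zbtb7a, 7.09 for Mta2 and 7.05 for Mbd3. Next to it, a peak of Mta2 (fold 3.75) and one of Mbd3 (fold 3.52) overlapped without Zbtb7a, the 1 site of 6 at Hnf4g that did not hold all 3 factors. The strongest site lay far into the span (3612219 to 3614098), with its Mta2 summit 105772 bp from the lower end. Mta2 had there a single peak of fold 21.4 (rank 10837 of 149855). Mbd3 had 2 peaks there, the stronger at fold 17.6 (rank 13583 of 134248), and Zbtb7a had 3, the strongest at fold 12.1 (rank 24060 of 124616). The site beyond it, at 3615063 to 3615875, had folds of 14.4 for Mta2, 9.97 for Mbd3 and 7.34 for Zbtb7a.

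**Figure D3:**
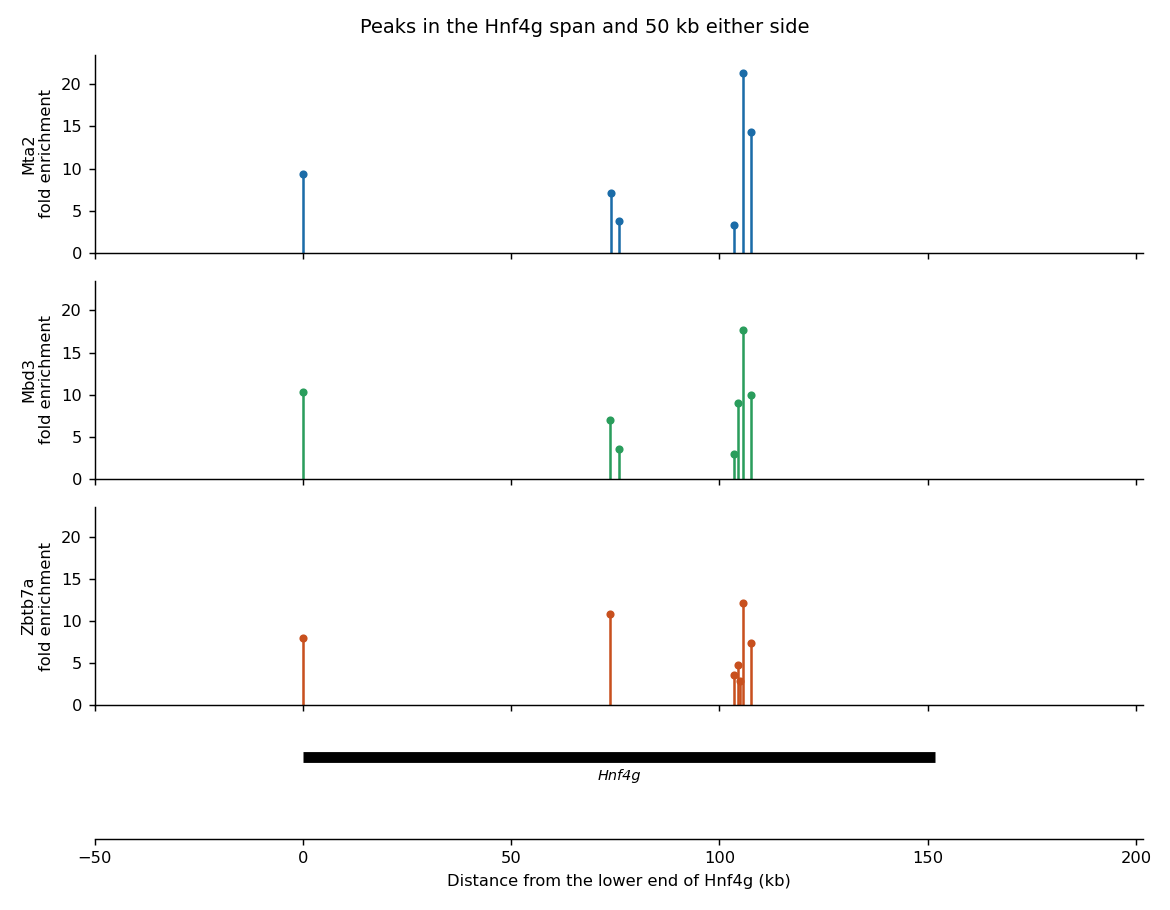
Fold enrichment of each peak (y axis) against the distance of its summit from the lower end of Hnf4g in kb (x axis), for Mta2, Mbd3 and Zbtb7a on a shared scale, with the gene span drawn to scale below. Peaks stand over the lower end and in a group that ends 107608 bp from it, and the highest stem is at fold 21.4 for Mta2, 17.6 for Mbd3 and 12.1 for Zbtb7a.

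Set side by side by the strongest peak of each factor, the 2 genes did not show the factors in the same order. At Hnf4a the highest fold was at percentile 99.3 of its list for Mta2, 99.3 for Mbd3 and 99.9 for Zbtb7a. At Hnf4g it was at percentiles 92.7, 89.9 and 80.6. At the strongest Hnf4a site Zbtb7a had the highest percentile, and Mta2 (99.26) and Mbd3 (99.31) were nearly equal. At the strongest Hnf4g site Mta2 had the highest and Zbtb7a the lowest. Over the 5 shared Hnf4g sites the order was mixed, with Mta2 highest at 2, Mbd3 at 1 and Zbtb7a at 2. Among the highest peaks per gene over all protein-coding genes, Hnf4a was at percentile 90.8 for Mta2, 92.3 for Mbd3 and 99.1 for Zbtb7a, and Hnf4g at 46.0, 39.7 and 27.2. Of peaks above their list's median fold, Hnf4a had 20 of 37 for Mta2, 15 of 34 for Mbd3 and 18 of 45 for Zbtb7a. Hnf4g had 4 of 6, 5 of 7 and 4 of 7. By definition a list has as many peaks above its median as below it. The Hnf4a shares for Mta2 and Mbd3 were near that, and the share for Zbtb7a was lower. The high counts at Hnf4a thus included weak peaks as well as strong ones.

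The members were then placed among the 49 nuclear receptor genes, themselves included. By number of summits Hnf4a ranked 8 for Mta2, 9 for Mbd3 and 7 for Zbtb7a, and Hnf4g 40, 38 and 38. By the highest fold in the span or within 50 kb, Hnf4a ranked 8, 7 and 3, and Hnf4g 32, 35 and 39. A peak in the flanks can stand near another gene, so these folds cannot be assigned to a gene from position. The genes with more Zbtb7a summits than the 45 of Hnf4a were Esrrg, Rora, Rxra, Vdr, Thrb and Ppara, and those with a higher Zbtb7a fold than its 86.6 were Rara (124) and Ppara (120.0), which encode a retinoic acid receptor and the fatty acid sensor PPAR alpha. Rxra encodes RXR alpha, the dimer partner of many of these receptors, and had 53 Zbtb7a summits in a window of 187 kb. The windows differ in length. Those of Esrrg, Rora and Thrb are 706, 835 and 481 kb, against 166 kb for Hnf4a. Those of Ppara and Vdr are 172 and 154 kb and held 46 and 53 Zbtb7a summits. Whether length accounts for the counts was not tested.

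**Figure D4:**
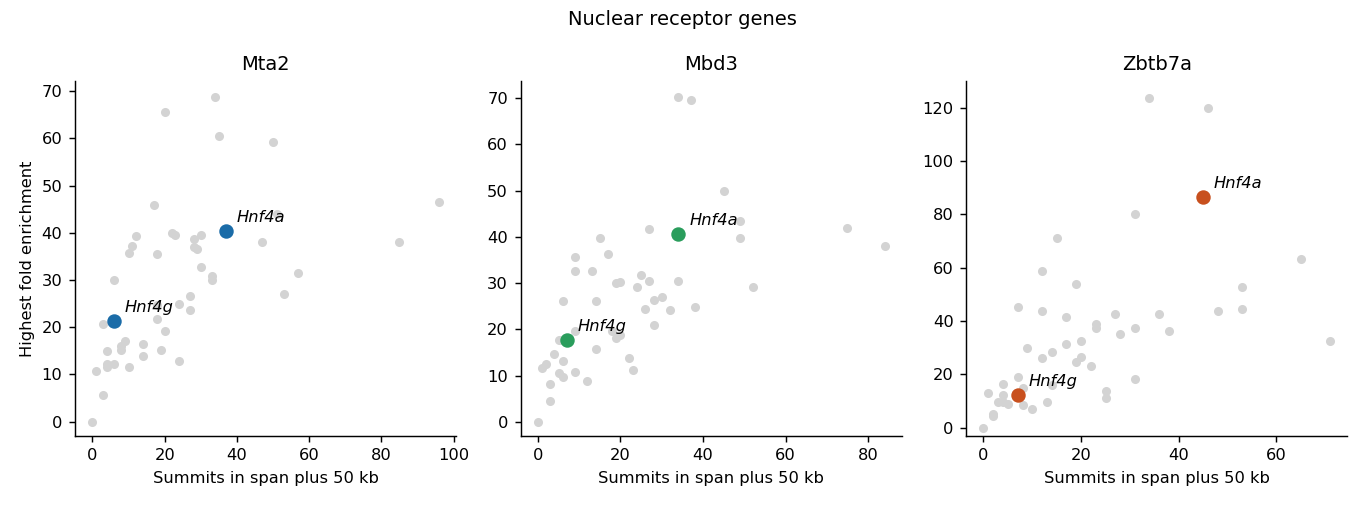
Highest fold enrichment (y axis) against the number of summits in the gene span plus 50 kb (x axis) for the 49 nuclear receptor genes, 1 point per gene and 1 panel per factor, with a gene without a peak drawn at 0. Hnf4a stands at 37, 34 and 45 summits and Hnf4g at 6, 7 and 7, and 2 genes lie above Hnf4a in the Zbtb7a panel.

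Of the other 47 nuclear receptor genes, 36 had a Mta2 summit within 1 kb of a gene end, 34 Mbd3 and 36 Zbtb7a, which is 76.6%, 72.3% and 76.6% where 67.2%, 65.5% and 65.6% of all protein-coding genes did. The highest Mta2 folds at an end were those of Nr2c2 (65.6), Rxra (59.3) and the clock-linked repressor gene Nr1d2 (45.8). Nr0b1 had no summit in its window at all, and Nr1h5 had none at an end and 1 of each factor in its window. There were 13 nuclear receptor genes with listed starts at least 5 kb apart. Hnf4a was 1 of 4 that carried all 3 factors at a start and none at another, with Rorb, Rxrg and Thrb. Another 4 carried all 3 at every listed start, and these were Esr1, Esrrg, Nr6a1 and Rarg. Of all 1032 protein-coding genes with starts that far apart, 407 (39.4%) showed the first pattern and 333 the second.

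Genes tied to HNF4 alpha by function were counted in the same way at their ends, against the same shares of all protein-coding genes (67.2% with Mta2, 65.5% with Mbd3 and 65.6% with Zbtb7a). Of 11 genes for coactivators and corepressors of nuclear receptors, 9 had Mta2, 10 Mbd3 and 10 Zbtb7a. Nr0b2, which encodes an orphan receptor that inhibits HNF4 alpha, had a Mta2 fold of 22.3, and the coactivator gene Ppargc1b reached 21.6 with Mta2 and 50.7 with Zbtb7a. Ncoa2, a coactivator gene, had no summit at an end but 40 Mta2 summits in its span. Of 10 genes for transcription factors enriched in liver, 8 had Mta2, 6 Mbd3 and 7 Zbtb7a, which is near those shares. The Mta2 folds were 30.8 at Cebpa, 25.5 at Cebpb and 12.7 at Foxa3, and the ends of Foxa1 and Nr5a2 had no summit. The Nr5a2 span held 9 Mta2, 7 Mbd3 and 5 Zbtb7a summits. Its listed start at 136953630 on chromosome 1 had Mta2 (fold 3.86) and Mbd3 (fold 2.74) within 1 kb, without Zbtb7a.

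Of 25 genes of the mature proximal tubule, the cell in which HNF4 alpha is best known in kidney, 23 had Mta2 at an end, 24 Mbd3 and 24 Zbtb7a, beside 67.2%, 65.5% and 65.6% of all protein-coding genes. The 1 gene without a summit at an end was Ttr, which encodes the thyroxine carrier transthyretin. Pck1, the gluconeogenic enzyme gene, led with a Mta2 fold of 67.4, followed by the water channel gene Aqp1 (41.6) and the neutral amino acid transporter gene Slc6a19 (37.9). In these 25 genes the median number of summits per window was 25 with Mta2, 25 with Mbd3 and 24 with Zbtb7a. By these counts 2 of the 25 genes had more Mta2 summits than Hnf4a, 3 more Mbd3 summits and 1 more Zbtb7a summits. For the counts that follow, the fold is the highest in the span or within 50 kb, not that at an end. None of the 25 had such a Zbtb7a fold above 86.6, while 11 had a higher Mta2 fold and 11 a higher Mbd3 fold than Hnf4a. All 25 had more summits and a higher fold of every factor than Hnf4g. Over all protein-coding genes, the summit counts of Hnf4a were at percentiles 96.2, 95.9 and 98.6 for Mta2, Mbd3 and Zbtb7a. Its highest folds were at 90.8, 92.3 and 99.1. Hnf4g was at 27.4, 34.1 and 36.2 by summits and at 46.0, 39.7 and 27.2 by highest fold. Most genes were therefore not below Hnf4g either.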

How the data were processed

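The data are 3 peak lists for 8 libraries of mouse kidney cortex, in narrowPeak layout without headers. The tools named in the submitters' processing notes are bedtools, Bowtie2, MACS2 and deepTools, with the build mm10 and no version or setting. Each line of the deposited lists holds an interval, a fold enrichment (a ratio), a −log10 q value and the offset of the summit, as the authors' peak caller gave them. How the mice were combined into 1 list is not stated, and neither depth per library nor Input was analysed here. Per the labels' protocols, chromatin was crosslinked with 2 mM disuccinimidyl glutarate and 1% formaldehyde, sheared to 100 to 1000 bp and sequenced to a stated depth of 100 (in units of 1e6 paired-end reads).

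Peaks on autosomes and X were assigned by summit to gene spans of RefSeq GRCm38.p6, whose coordinates equal those of mm10, with Python 3.11.15, pandas 2.3.3 and numpy 2.4.6. A listed start is the base after the 250 bases of a promoter entry. Functions were tested on simulated peaks. Described singly were, per gene and factor, the 3 peaks of highest fold, peaks within 1 kb of an end or listed start and the strongest peak that overlaps no other list. Per gene list the 3 members of highest Mta2 fold and up to 2 without a summit at an end were named, except 1 cofactor gene that is not reported here. Comparisons of starts, motifs and within-site order, and the other nuclear receptors named, were chosen after values were seen. The members and lists were chosen with earlier results of these data known. Alternatives were minimum values of −log10 q (10) and fold (5), other windows, ranks by −log10 q and stricter overlap.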

Additional observations from a re-analysis of the deposited data

How the results depend on the processing

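No paired analysis was possible because the lists carry no value per mouse, and for the same reason no replicate could be left out. Of 102 recomputed values 68 stayed within the limits set (1.5 times for counts, the binomial interval for percentiles) and 34 moved. Summits at Hnf4a numbered 20, 15 and 18 for Mta2, Mbd3 and Zbtb7a with a fold of at least 5, and 20, 17 and 25 in the span alone. They numbered 24 (Mta2) and 21 (Mbd3) in the span plus 10 kb, and 23 and 19 where Hnf4a was the nearest protein-coding gene. Where −log10 q had to reach 10 there were 21 Mbd3 and 23 Zbtb7a summits and 18 sites of all 3 factors at Hnf4a. At Hnf4g, 4 Zbtb7a summits had a fold of at least 5. Ranked by −log10 q, the strongest peaks were at percentiles 98.0, 98.1 and 99.7 at Hnf4a and 89.0, 86.0 and 77.6 at Hnf4g. Among protein-coding genes, summits per 100 kb put Hnf4a at percentiles 93.3, 92.5 and 97.8 and Hnf4g at 19.9, 23.8 and 25.8. In the span alone, per 100 kb and among genes of at least 10 kb, Hnf4a was at 94.2, 91.8 and 97.4. By summits with a −log10 q of at least 10, over all protein-coding genes, Hnf4a was at 94.8, 92.5 and 95.4. Hnf4g was then at 26.3 for Mta2 and 37.5 for Zbtb7a. The highest folds at both genes and the counts of the 4 gene lists stayed within the limits under every alternative run for them.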

Other observations

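The genes whose profile was nearest to that of Hnf4a, over the percentiles of summit number and of highest fold in the 3 lists (6 values), were Prr5, Slc6a6 and Mindy4, at Euclidean distances of 2.37, 2.38 and 2.74 percentile points. Slc6a6, the taurine transporter gene, had 37 Mta2, 37 Mbd3 and 43 Zbtb7a summits and highest folds of 41.5, 41.8 and 65.8. Mindy4 had 44, 36 and 41 summits. Its highest folds of 41.6, 40.9 and 65.8 equal those at the ends of Aqp1 to every digit, and are taken to be the same peaks. For Hnf4g the nearest were Gbp10, Cytip and Tescl, at distances of 5.99, 6.35 and 7.22. Cytip, known from lymphocytes, had 6, 8 and 6 summits with highest folds of 20.7, 18.3 and 12.8. These likenesses are descriptions over 3 lists.

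Other nuclear receptor genes also differed between their listed starts. At Thrb, a thyroid hormone receptor gene, the start at 17660960 on chromosome 14 carried Mta2, Mbd3 and Zbtb7a folds of 27.1, 29.3 and 43.8, and the start at 17981644 had no summit within 1 kb. At Rxrg the occupied start was the downstream one, at 167618265 on chromosome 1, with folds of 12.2, 14.6 and 12.4. At Rorb, on the minus strand of chromosome 19, it was the upstream one, at 19111196, with folds of 15.1, 9.72 and 9.34. At Rxra the start at 27677201 on chromosome 2 had a Mta2 fold of 59.3 and a Mbd3 fold of 37.8. No Zbtb7a summit fell within 1 kb of that start. Counted by the ends of the Rxra span instead, Zbtb7a was present, with a highest fold of 40.7. Which of the ends holds that Zbtb7a peak was not determined, so Zbtb7a cannot be called absent from the surroundings of that start. The start at 27709292 had no summit of any factor within 1 kb.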
